A study of Mus musculus with 8 samples.

Results

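The comparison of refed livers with and without HRD1 took 4 of the 8 samples of the series, the 2 labelled KO-Refed and the 2 labelled WT-Refed, chosen by their genotype and feeding labels alone. All were livers of C57BL/6 mice aged 12 weeks that had been fasted overnight and then given food again for 4 h. The knockout mice (HRD1Alb) carried floxed Hrd1 alleles and a Cre recombinase under the albumin promoter, which is active in the hepatocyte lineage from early liver development, and the controls (WT) carried the floxed alleles without Cre. The deletion was thus directed at hepatocytes and not at the macrophages, endothelial cells or stellate cells of the same whole liver. The remaining 4 samples, KO-Fasted and WT-Fasted with 2 each, were livers of the same genotypes taken after the fast, and they entered the fit to estimate the spread between replicates. Nothing in the labels says that the 2 samples of a group were separate mice, so the p-values measure the spread between these samples. The clock time of sampling is not given in the sources used here. The labels give no sex, and the Y-linked transcript Ddx3y lay between 55.2 and 101 CPM, the counts of a gene scaled to library size, in the 4 refed samples, while Xist, the X-inactivation RNA of female cells, lay between 0.0988 and 0.341 CPM.

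HRD1, encoded by Syvn1, is the ubiquitin ligase at the centre of a membrane complex that draws misfolded proteins out of the endoplasmic reticulum (ER) for destruction by the proteasome, a process called ER-associated degradation (ERAD). When unfolded proteins build up, the sensors IRE1, ATF6 and PERK raise chaperones and ERAD genes and slow protein synthesis. The PERK arm phosphorylates eIF2alpha, as do the kinases that sense amino acid shortage, and the transcription factors ATF4 and CHOP then raise genes for amino acid synthesis and uptake, tRNA charging and cell death. In the liver, feeding switches on the fatty acid synthesis genes through SREBP-1c, which responds to insulin, and through ChREBP.

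The 8 libraries held 40210576 to 49117080 counted reads each, and 3 reads corresponded to 0.0508 to 0.0788 CPM. Of 23337 gene symbols in the files, 14328 passed a filter on low counts and were tested. Replicate libraries of WT-Refed ranked these genes with a Spearman correlation across genes of 0.995, against 0.955 for the libraries labelled KO-Refed, in which 3204 genes lay at least 2-fold apart. That gap followed transcript length. In the shortest quintile of genes, with a median transcript of 1044 bases, the library labelled KO-Refed2 lay a median of 0.78 above the WT-Refed mean on the log2 CPM scale, and in the longest quintile, with a median of 5565.5 bases, it lay -0.72 from it. The library labelled KO-Refed1 moved from 0.05 to -0.06 over the same quintiles. Named genes are therefore given with the values of both libraries. Each list's counts are followed in parentheses by the counts called higher and lower without KO-Refed1, without KO-Refed2 and with a length correction. A fit without 1 KO-Refed library has 1 sample in that group, so its spread comes from the other groups alone. Its counts leave out the gap between the KO-Refed libraries and are a description. Over all tested genes the main fit called 7.09% higher and 4.84% lower, the shares to set beside each list.

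**Figure D1:**
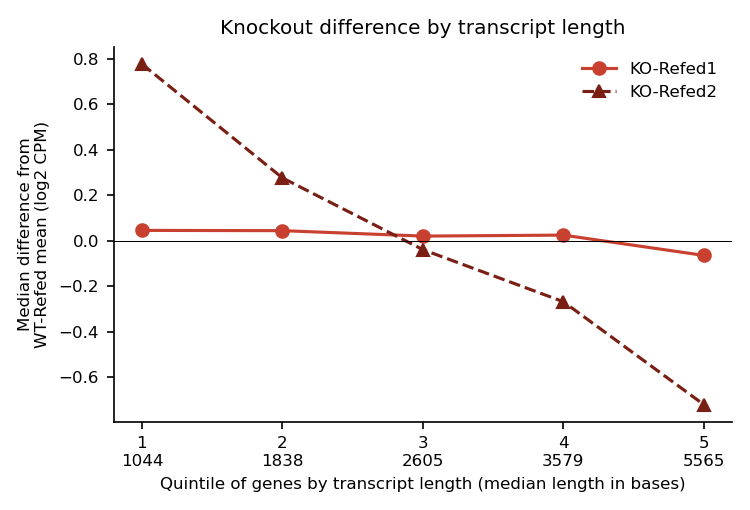
Median difference from the WT-Refed mean (y axis, log2 CPM) of the genes in each quintile of transcript length (x axis, with the median length in bases) for the libraries labelled KO-Refed1 (circles) and KO-Refed2 (triangles). The line of KO-Refed2 falls from 0.78 to -0.72 while that of KO-Refed1 stays between 0.05 and -0.06.

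Syvn1, on chromosome 19 at chr19:6046576-6053712 (GRCm38), did not separate the refed genotypes. Its level was 637 and 305 CPM in WT-Refed, 453 CPM in the library labelled KO-Refed1 and 132 CPM in the library labelled KO-Refed2. The library labelled KO-Refed1 thus lay inside the WT range, and the log2 difference was -0.69 ± 0.55 (SE, adjusted p = 0.391). In the fasted samples the same gene was at 111 and 99.8 CPM in WT-Fasted and 32.6 and 31.5 CPM in KO-Fasted. None of the 23 tested genes of the HRD1 complex and ERAD was called in the fasted comparison. Counts per gene do not show which exons were read, so reads from a transcript that lacks the floxed part are counted too. Every direction below rests on the labels, and the 2 libraries are called the labelled knockouts. Without KO-Refed1 the difference was -1.83 (adjusted p = 0.00676), and without KO-Refed2 it was -0.06 (adjusted p = 0.925). Most genes called in the fasted comparison were also called in the same direction in the refed one. The 2 comparisons share no sample, but both come from 1 fit with 1 estimate of the spread for each gene. The overlap in calls is thus not independent support for the labels. Of 132 genes higher in KO-Fasted (0.921% of those tested) 114 were called higher in the labelled refed knockouts, which is 86.4% of the fasted and 11.2% of the refed calls. Of 62 lower in KO-Fasted (0.433%) 51 were called lower, 82.3% and 7.36% of the calls, and 0 genes were called in opposite directions.

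In the refed livers 1016 genes (7.09% of those tested) were higher and 693 (4.84%) lower in the labelled knockouts at an adjusted p under 0.05 in edgeR's quasi-likelihood test over all 8 samples. A stricter count asked that each labelled knockout also lie outside the WT range and at least 2-fold from the WT mean, which left 674 higher (4.7%) and 265 lower (1.85%). In 30.7% of tested genes both labelled knockouts lay above the WT range and in 30.1% both lay below it. Without KO-Refed2 12.4% of genes were called higher and 11.9% lower, among them 949 of the 1016 and 672 of the 693. Without KO-Refed1 25.6% were higher and 28.1% lower, among them 1015 and 693. With the length correction 9.94% were higher and 9.46% lower, and 936 of the 1007 higher genes that had a length and 597 of the 685 lower genes were among them. Scaling by total counts alone gave 1975 higher and 283 lower genes, so that 87.5% of the calls were higher against 59.4% with the default scaling, and the median log2 difference over all genes was 0.26 against 0.04. The calls lean on the fasted samples for the estimate of the spread. The fit takes the same spread of a gene in every group. Yet 3204 genes lay at least 2-fold apart in KO-Refed, against 693 in WT-Refed, 1141 in WT-Fasted and 424 in KO-Fasted. Standard errors and adjusted p values can thus be too small where KO-Refed is the more spread. Limma-voom with sample quality weights, which lets libraries differ in spread, called 121 higher and 31 lower. With the 4 refed samples alone no gene passed, although 2975 had an unadjusted p under 0.05 and the smallest adjusted p was 0.0525, and leaving out WT-Refed1 or WT-Refed2 left only Ddit3, and Ddit3 and Fgf21. Since 2 samples against 2 cannot give an exact permutation p below 0.333, no such test of a gene alone was made.

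**Figure D2:**
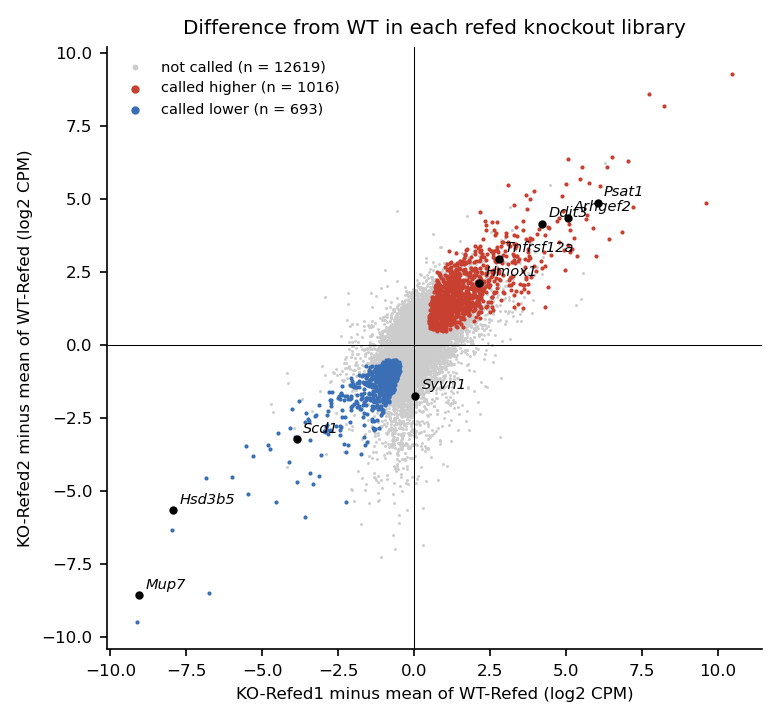
Difference from the WT-Refed mean on the log2 CPM scale for each tested gene in the library labelled KO-Refed1 (x axis) and that labelled KO-Refed2 (y axis), with 1016 genes called higher in red, 693 called lower in blue and the rest in grey. The named genes other than Syvn1 lie far from 0 on the same side in both libraries, and Syvn1 lies close to 0 on the x axis.

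The genes of the integrated stress response stood higher in the labelled knockouts. Of 19 tested members of the PERK-ATF4-CHOP list, 8 rose and none fell (10 and 2 without KO-Refed1, 15 and 0 without KO-Refed2, 9 and 0 with the length correction), and the list's median log2 difference was 1.63 against 0.04 over all tested genes. Ddit3, which encodes CHOP, was at 16.1 and 11.3 CPM in WT-Refed and 251 and 241 CPM in the labelled knockouts, a log2 difference of 4.17 ± 0.23 (adjusted p = 0.00126). The groups were far apart and the 2 labelled knockouts close together. Trib3, a pseudokinase raised by CHOP that inhibits AKT, was at 6.52 and 7.85 CPM in WT-Refed and 241 and 76.7 CPM in the labelled knockouts, and rose by 4.47 ± 0.52 (adjusted p = 0.00895). Atf3, a stress-induced repressor of the same family as ATF4, went from 1.51 and 1.60 to 79.6 and 31.7 CPM (log2 difference 5.16 ± 0.82, adjusted p = 0.0152). For both genes the library labelled KO-Refed1 was the higher of the labelled knockouts by more than 2-fold, and the lower one was still well above both WT samples. Nupr1, a small stress-induced chromatin protein, was at 2.02 and 0.998 against 99.4 and 62.7 CPM (log2 difference 5.74 ± 0.61, adjusted p = 0.00820). Chac1, which breaks down glutathione, was at 0.469 and 0.683 against 2.44 and 1.67 CPM. Cebpb, a partner of CHOP, was at 30.8 and 25.8 against 54.2 and 78.1 CPM, less than 2-fold above the WT mean in the library labelled KO-Refed1.

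Fgf21 and Gdf15, which encode secreted hormones, were among the 8. Fgf21, the fasting and stress hormone of the liver, was at 1.53 and 2.21 CPM in WT-Refed and 25.6 and 21.9 CPM in the labelled knockouts (log2 difference 3.67 ± 0.23, adjusted p = 0.00148). Gdf15, an appetite-reducing cytokine released by stressed cells, was at 3.23 and 2.73 against 30.3 and 31.3 CPM (log2 difference 3.37 ± 0.50, adjusted p = 0.0137). For both hormones the labelled knockouts lay close together and far above the WT samples. The mRNA of Atf4 itself, whose protein is controlled mainly by translation, did not pass the test at 136 and 182 against 243 and 269 CPM (adjusted p = 0.0676). Stc2, which encodes the secreted hormone stanniocalcin-2, was at 0.0247 and 0.0525 against 0.220 and 0.241 CPM and did not pass (adjusted p = 0.125). Neither did Ddit4, an inhibitor of mTORC1 signalling, at 9.23 and 11.5 against 46.4 and 24.4 CPM (adjusted p = 0.0642).

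**Figure D3:**
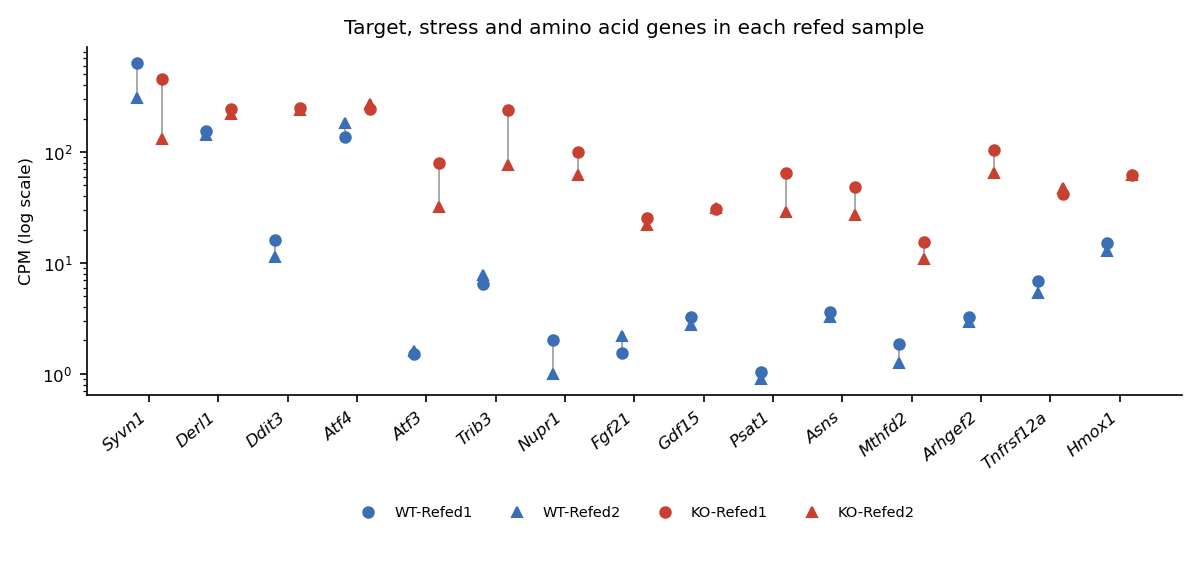
CPM on a log axis of the targeted gene, the ERAD gene Derl1 and stress, amino acid synthesis, cytoskeletal and antioxidant genes in the WT-Refed (blue) and labelled KO-Refed (red) libraries, with circles for replicate 1 and triangles for replicate 2. Red and blue points overlap for Syvn1 and are apart for the other genes drawn, among which Atf4 was not called.

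ATF4 binds with C/EBP proteins at a composite element whose core reads TGATGNAA, where N is any base. The element was looked for on both strands of the RefSeq promoter windows (GRCm38.p6), which reach from 250 bases before to 50 after each transcript start. It stood in 329 of 11122 tested genes with a window (2.96%), in 6 of the 17 stress response genes with one, and in 5 of the 8 of them that rose. Of the tRNA synthetase genes it stood in 1 of 2 that rose, Gars, and in 4 of 10 that were not called higher, of the serine list in 1 of 7 that rose and 1 of 6 others, of the transporters in 2 of 4 that rose and 0 of 6 others, and of the NRF2 list in 0 of 22. The 30 of 792 called-higher genes with the element (3.79%) were close to that share of all tested genes. The stress list was made up of genes of the PERK-ATF4-CHOP response, so its higher share is a description. Stretches of up to 60 bases on each side of the element, cut at the transcript start and at the window's far edge, are shown for 6 of the genes that rose and for Vldlr, a lipoprotein receptor of the stress list that did not pass at 9.11 and 7.80 against 35.9 and 16.3 CPM (adjusted p = 0.0716). The element is in capitals, the strand is that of the gene, and a match describes letters and not binding.
Atf3 (chr1:191183376-191183503, minus strand): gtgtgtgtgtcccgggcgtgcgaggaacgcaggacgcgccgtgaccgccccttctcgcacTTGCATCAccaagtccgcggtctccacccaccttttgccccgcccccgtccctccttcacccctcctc
Chac1 (chr2:119350992-119351116, plus strand): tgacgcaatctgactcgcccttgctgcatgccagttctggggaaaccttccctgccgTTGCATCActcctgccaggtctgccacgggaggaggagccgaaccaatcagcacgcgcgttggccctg
Nupr1 (chr7:126625513-126625640, minus strand): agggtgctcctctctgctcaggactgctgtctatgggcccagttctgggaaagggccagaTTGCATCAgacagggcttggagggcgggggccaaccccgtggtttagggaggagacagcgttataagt
Fgf21 (chr7:45615562-45615689, minus strand): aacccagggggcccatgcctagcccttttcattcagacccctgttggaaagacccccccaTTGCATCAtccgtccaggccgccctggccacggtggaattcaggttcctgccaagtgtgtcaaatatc
Asns (chr6:7693210-7693292, minus strand): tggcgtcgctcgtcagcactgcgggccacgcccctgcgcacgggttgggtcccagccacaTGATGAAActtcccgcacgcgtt
Slc7a11 (chr3:50443614-50443739, minus strand): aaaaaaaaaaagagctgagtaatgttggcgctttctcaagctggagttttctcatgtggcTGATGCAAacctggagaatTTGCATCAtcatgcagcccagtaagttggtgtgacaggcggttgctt
Vldlr (chr19:27216770-27216887, plus strand): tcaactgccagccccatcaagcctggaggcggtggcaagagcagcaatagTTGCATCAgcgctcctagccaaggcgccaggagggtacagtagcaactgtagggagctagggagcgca
In Atf3, Chac1, Nupr1, Fgf21 and Vldlr the gene's own strand read TTGCATCA, the reverse complement of TGATGCAA. Slc7a11 held the element in each orientation, 1 after the other, and Asns held the variant TGATGAAA. Trib3 had its match in the 50 bases after the start, and none lay in the windows of Ddit3, Gdf15 or Cebpb.

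Of 15 tested genes that make serine, asparagine and folate-bound carbon units 8 rose and none fell (8 and 1 without KO-Refed1, 8 and 2 without KO-Refed2, 8 and 0 with the length correction). All 8 had each labelled knockout at least 2-fold above the WT mean. Psat1, the aminotransferase of serine synthesis (chr19:15904678-15947337), was at 1.04 and 0.893 CPM in WT-Refed and 64.99 and 28.96 CPM in the labelled knockouts (log2 difference 5.60 ± 0.43, adjusted p = 0.00273). The library labelled KO-Refed1 was more than 2-fold above that labelled KO-Refed2, and both were far above the WT samples. The other enzymes of that path also rose. Phgdh, which starts it, was scarce at 0.0494 and 0.0525 against 0.288 and 0.701 CPM, with both WT samples under the level of 3 reads, and it was not called without KO-Refed2 (adjusted p = 0.0527). Psph, which ends it, was at 8.10 and 8.30 against 18.03 and 17.5 CPM. Asns, asparagine synthetase, was at 3.61 and 3.23 against 48.6 and 27.3 CPM (log2 difference 3.47 ± 0.43, adjusted p = 0.00991). Among the mitochondrial folate enzymes, Mthfd2 was at 1.85 and 1.26 against 15.4 and 10.9 CPM, Mthfd1l at 1.16 and 0.919 against 4.18 and 2.63 CPM, and Aldh1l2 at 0.321 and 0.341 against 4.49 and 1.69 CPM. Aldh18a1, which makes the precursor of proline, was at 1.28 and 0.893 against 33.6 and 10.3 CPM (log2 difference 4.33 ± 0.59, adjusted p = 0.0113). Shmt2, the mitochondrial enzyme that takes the carbon unit from serine, was at 279 and 296 against 182 and 266 CPM and did not pass (adjusted p = 0.240).

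Amino acid transporters and tRNA synthetases moved in part. Of 15 tested transporters 5 rose and 2 fell (5 and 4 without KO-Refed1, 8 and 2 without KO-Refed2, 7 and 2 with the length correction). Slc3a2, the heavy chain shared by several exchangers, was at 47.7 and 45.2 CPM in WT-Refed and 176 and 122 CPM in the labelled knockouts (log2 difference 1.69 ± 0.21, adjusted p = 0.00991). Slc7a11, the cystine importer that pairs with it, had no read in either WT-Refed library and 3.13 and 0.548 CPM in the labelled knockouts, which is at least 39.8-fold and 6.96-fold above the level of 3 reads in the shallower WT library. Slc7a1, a cationic amino acid importer, was at 0.815 and 1.31 against 12.8 and 2.50 CPM, so that most of its rise came from the library labelled KO-Refed1. The neutral amino acid carriers Slc1a4, at 9.14 and 7.14 against 36.2 and 20.5 CPM, and Slc1a5, at 5.31 and 4.46 against 10.1 and 8.86 CPM, were the others that rose. The 2 that fell were Slc38a4, at 1048 and 1052 against 684 and 650.2 CPM, and Slc3a1, at 15.6 and 14.2 against 1.96 and 2.13 CPM. Of 20 cytosolic tRNA synthetases 3 rose (11 and 0 without KO-Refed1, 8 and 1 without KO-Refed2, 8 and 0 with the length correction), namely Gars, Sars and Vars. Sars, which charges the serine tRNA, was at 77.6 and 66.01 against 126 and 147 CPM (log2 difference 0.93 ± 0.16, adjusted p = 0.0190), and no synthetase was 2-fold higher in each labelled knockout.

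Of 24 genes for the unfolded protein response sensors, their factors and ER chaperones, 2 rose and none fell (9 and 5 without KO-Refed1, 12 and 0 without KO-Refed2, 3 and 0 with the length correction), shares near the 7.09% and 4.84% over all tested genes, and the median log2 difference was 0.47. Pdia6, a disulfide isomerase, was at 525 and 402 CPM in WT-Refed and 851 and 844 CPM in the labelled knockouts (log2 difference 0.87 ± 0.19, adjusted p = 0.0332). Manf, a secreted ER stress protein, was at 487 and 322 against 777 and 951 CPM (log2 difference 1.10 ± 0.25, adjusted p = 0.0358). Hspa5, the main ER chaperone BiP, was at 4892 and 2759 against 8635 and 6171 CPM, and Hsp90b1 at 3818 and 2019.8 against 6954 and 5048 CPM. In neither did the groups overlap, with both labelled knockouts above the WT range as in 30.7% of tested genes. The WT-Refed samples stood nearly 2-fold apart from each other, and the adjusted p values were 0.0848 and 0.0824. Xbp1, whose mRNA is spliced by IRE1, was at 356 and 351 against 297 and 280.4 CPM (adjusted p = 0.218), and gene counts do not separate its spliced form. DESeq2 called 9 of the 24 members higher and 0 lower, against 1704 higher and 1486 lower of all 14328 tested genes. In edgeR's fit 12 of the 24 had an unadjusted p under 0.05, against 4775 of the 14328. The list was thus near the shares over all genes in edgeR's calls, and above the share called higher in DESeq2's.

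Of 23 genes of the HRD1 complex and ERAD, 1 rose and 1 fell (5 and 10 without KO-Refed1, 5 and 4 without KO-Refed2, 1 and 2 with the length correction), again near the shares over all tested genes. Derl1, a channel subunit of the complex, was at 155 and 144 CPM in WT-Refed and 244 and 220.4 CPM in the labelled knockouts (log2 difference 0.64 ± 0.14, adjusted p = 0.0361). Derl3, a relative of Derl1 raised by IRE1 and XBP1, was at 66.6 and 10.4 against 499.5 and 215 CPM and just missed the threshold (adjusted p = 0.0508). Of the 7 tested genes whose proteins the study examined as HRD1 substrates none was called by edgeR (2 and 2 without KO-Refed1, 1 and 1 without KO-Refed2, 0 and 0 with the length correction) or DESeq2, and 1 had an unadjusted p under 0.05. The mRNA of Entpd5, a nucleotide hydrolase of the ER, stood at 466 and 429 against 387 and 285 CPM (adjusted p = 0.186). Rmnd1, which encodes another of the study's substrates, had 0 and 1 reads in WT-Refed and 0 and 0 in the labelled knockouts. It was not tested.

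Of 25 tested NRF2 and antioxidant targets 6 rose and none fell (13 and 4 without KO-Refed1, 8 and 2 without KO-Refed2, 7 and 2 with the length correction), and DESeq2 called 8 higher and 1 lower, with a median log2 difference of 0.44. Hmox1, the haem oxygenase (chr8:75093621-75100589), was at 15.2 and 12.9 CPM in WT-Refed and 61.6 and 61.8 CPM in the labelled knockouts (log2 difference 2.14 ± 0.17, adjusted p = 0.00284). The 2 labelled knockouts agreed closely. Srxn1, which repairs oxidized peroxiredoxins, was at 108 and 81.6 against 206 and 173 CPM (log2 difference 1.001 ± 0.19, adjusted p = 0.0231), and Gstm3, a glutathione transferase, at 21.7 and 17.96 against 115 and 186 CPM (log2 difference 2.92 ± 0.44, adjusted p = 0.0138). Nqo1, often taken as the reference target of NRF2, was at 9.09 and 10.6 against 12.8 and 14.4 CPM and did not pass (adjusted p = 0.184). Gclc, the catalytic subunit of glutathione synthesis, was at 417 and 367 against 384 and 170.1 CPM (adjusted p = 0.346). The NRF2 element, searched as TGACNNNGC on both strands, stood in 9 of the 22 list genes with a window and in 2 of the 5 that rose, against 16.8% of tested genes.

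Part of the cytoskeletal genes rose together with the TWEAK receptor gene. Of 21 tested members of the microtubule and TWEAK receptor list 8 rose and none fell (13 and 0 without KO-Refed1, 8 and 0 without KO-Refed2, 8 and 0 with the length correction). Arhgef2, a guanine nucleotide exchange factor that binds microtubules (chr3:88605966-88648052), was at 3.28 and 2.91 CPM in WT-Refed and 104 and 64.1 CPM in the labelled knockouts (log2 difference 4.76 ± 0.28, adjusted p = 0.00126). Tnfrsf12a, which encodes Fn14, the receptor of the cytokine TWEAK (chr17:23675445-23677468), was at 6.91 and 5.38 against 42.03 and 47.7 CPM (log2 difference 2.87 ± 0.21, adjusted p = 0.00273). The tubulin genes Tubb6, at 9.80 and 11.4 against 34.8 and 33.6 CPM, and Tuba8, at 12.2 and 9.14 against 34.9 and 56.6 CPM, rose as well. Of 18 annexin and S100 genes 8 rose (13 and 2 without KO-Refed1, 6 and 3 without KO-Refed2, 8 and 1 with the length correction). Anxa2, a calcium-dependent membrane protein, was at 14.3 and 15.7 against 148 and 124 CPM (log2 difference 3.18 ± 0.18, adjusted p = 0.00126). Ddit3, Arhgef2, Psat1, Tnfrsf12a and Hmox1 were picked out with earlier results of these data known, so their size is a description.

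Some growth arrest genes and some cell cycle genes rose in the same libraries. Of 22 genes of p53 targets, growth arrest and apoptosis 5 rose and none fell (7 and 1 without KO-Refed1, 10 and 2 without KO-Refed2, 7 and 2 with the length correction). Gadd45a, a stress sensor of growth arrest, was at 6.17 and 5.86 CPM in WT-Refed and 38.97 and 29.9 CPM in the labelled knockouts (log2 difference 2.52 ± 0.22, adjusted p = 0.00513), and Phlda3, an AKT inhibitor induced by p53, was at 0.494 and 0.604 against 4.28 and 6.55 CPM (log2 difference 3.30 ± 0.36, adjusted p = 0.00820). The others were Bax, a cell death effector, at 16.8 and 18.7 against 25.9 and 46.3 CPM, the growth inhibitor Btg2, at 11.3 and 10.3 against 39.8 and 29.5 CPM, and Tnfrsf10b, the death receptor raised by CHOP, at 0.444 and 0.184 against 1.32 and 1.21 CPM. Gadd45b, at 2.77 and 1.97 against 3.71 and 6.88 CPM, and Gadd45g, at 8.30 and 6.22 against 17.9 and 43.1 CPM, did not pass (adjusted p = 0.0642 and 0.0861). Cdkn1a, which encodes p21, was at 15.7 and 9.66 against 53.5 and 37.5 CPM and did not pass either (adjusted p = 0.0597). Of 28 cell cycle genes 8 rose and none fell (19 and 0 without KO-Refed1, 8 and 0 without KO-Refed2, 11 and 0 with the length correction). Ccnd1, the D-type cyclin of cell cycle entry, was at 45.1 and 24.1 against 172 and 205 CPM (log2 difference 2.44 ± 0.30, adjusted p = 0.00991), while Cdk1, the mitotic kinase, was at 1.14 and 0.788 against 1.96 and 4.10 CPM. Of 14 fetal liver and hepatocyte growth genes 3 rose (6 and 0 without KO-Refed1, 5 and 0 without KO-Refed2, 5 and 0 with the length correction). Afp, the fetal relative of albumin, was at 3.68 and 3.62 against 6.30 and 9.23 CPM, and Ly6d, a surface protein, at 2.96 and 2.78 against 44.3 and 112 CPM. Dlk1, an imprinted fetal growth gene, had no read in WT-Refed and 0.271 and 0.175 CPM in the labelled knockouts, at least 3.44-fold and 2.23-fold above the level of 3 reads in the shallower WT library.

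Markers of macrophages and of matrix-producing cells moved with the labels. Of 23 tested markers of Kupffer cells and macrophages 18 rose and none fell (20 and 0 without KO-Refed1, 19 and 0 without KO-Refed2, 18 and 0 with the length correction), and their summed level was 192.5 and 199.6 CPM in WT-Refed and 468.4 and 893.2 CPM in the labelled knockouts. No marker of the list was at 0 in a refed library. Clec4f, found on Kupffer cells, was at 35.7 and 38.4 against 61.2 and 139 CPM (adjusted p = 0.0463), and Cd68, of macrophage lysosomes, at 2.59 and 2.73 against 9.51 and 11.9 CPM (adjusted p = 0.0110). Gpnmb, a glycoprotein of lipid-laden macrophages, was at 0.296 and 0.210 against 13.97 and 5.96 CPM, and Mmp12, macrophage elastase, at 0.123 and 0.131 against 12.02 and 10.2 CPM. Of 24 markers of stellate cells, fibroblasts and matrix 9 rose and none fell (9 and 1 without KO-Refed1, 14 and 0 without KO-Refed2, 15 and 0 with the length correction), with sums of 252.7 and 308.1 CPM against 781.8 and 535.8 CPM, and Col1a1, the main fibrillar collagen chain, was at 2.96 and 4.60 against 33.97 and 15.3 CPM (adjusted p = 0.0316). Of 16 lymphocyte markers Cd8a, Gzma and Gzmb rose (10 and 0 without KO-Refed1, 3 and 0 without KO-Refed2, 3 and 0 with the length correction), with sums of 8.618 and 6.906 CPM against 13.44 and 23.15 CPM, and of 5 tested neutrophil markers S100a9 rose (2 and 0 without KO-Refed1, 0 and 0 without KO-Refed2, 1 and 0 with the length correction) but was not called without KO-Refed2 (adjusted p = 0.0680). No endothelial marker of 14 was called by edgeR (2 and 1 without KO-Refed1, 1 and 0 without KO-Refed2, 0 and 0 with the length correction) or DESeq2 and 1 had an unadjusted p under 0.05, with sums of 253.3 and 221.5 CPM against 291.9 and 267.1 CPM. Of 13 cholangiocyte markers Krt23 rose, at 1.04 and 0.867 against 9.48 and 10.8 CPM, and Slc4a2 fell (1 and 3 without KO-Refed1, 1 and 1 without KO-Refed2, 1 and 0 with the length correction), a call lost with the length correction (adjusted p = 0.116). None of the 8 hepatocyte markers was called by edgeR (0 and 2 without KO-Refed1, 0 and 2 without KO-Refed2, 0 and 0 with the length correction), 2 had an unadjusted p under 0.05 and DESeq2 called 1 lower. Alb, which encodes albumin, was at 79498 and 86980.0 against 47753 and 76587 CPM. The 4 haemoglobin genes in the files had no read in any refed library. The treatment of shared reads is not given, so the amount of blood cannot be judged from them. The 3 tested red cell markers had sums of 105.1 and 79.25 CPM in WT-Refed and 55.42 and 49.25 CPM in the labelled knockouts, and none was called by edgeR. In bulk liver more cells of a type and more RNA per cell cannot be told apart. The annexin, S100, cell cycle, haem oxygenase and matrix genes above are also made by such cells, and the part of these cells in their rise was not tested.

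**Figure D4:**
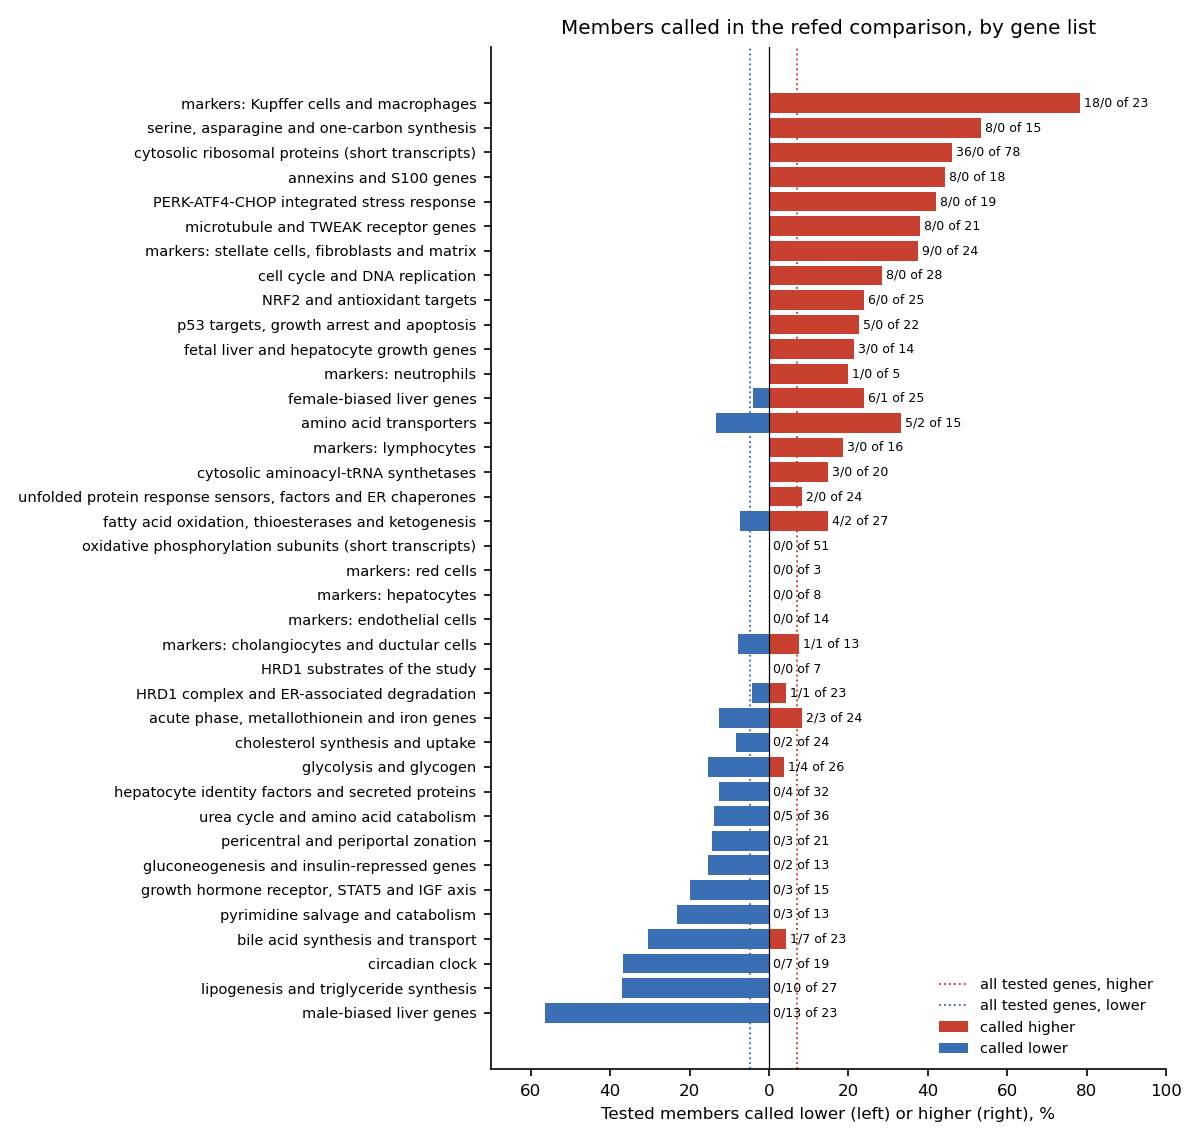
Share of the tested members of each gene list called higher (red, right) or lower (blue, left) in the labelled refed knockouts, with the counts of higher and lower calls of all tested members at the right of each bar and dotted lines at 7.09% and 4.84%, the shares over all tested genes. The macrophage markers have the longest red bar, 18 of 23, and the male-biased genes the longest blue bar, 13 of 23.

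Lipid synthesis genes stood lower in the labelled knockouts. Of 27 tested lipogenesis and triglyceride genes 10 fell and none rose (1 and 14 without KO-Refed1, 0 and 15 without KO-Refed2, 0 and 10 with the length correction), and the median log2 difference was -0.88. Scd1, the stearoyl-CoA desaturase, was at 2378 and 2170.1 CPM in WT-Refed and 156 and 241 CPM in the labelled knockouts (log2 difference -3.52 ± 0.52, adjusted p = 0.0136). Mlxipl, which encodes ChREBP, was at 278 and 306 against 144 and 83.7 CPM (log2 difference -1.36 ± 0.28, adjusted p = 0.0292). Srebf1, which encodes SREBP-1, was at 88.8 and 206 against 66.6 and 61.9 CPM. The groups did not overlap, with both labelled knockouts below the WT range as in 30.1% of tested genes. The WT-Refed samples were over 2-fold apart and the gene did not pass (adjusted p = 0.0692). Fasn, fatty acid synthase, was at 267 and 529 against 216 and 267 CPM, and the labelled KO-Refed2 library matched the lower WT sample (adjusted p = 0.188). Several genes that lengthen and desaturate fatty acids fell. Elovl5 was at 863 and 757 against 346 and 353 CPM (log2 difference -1.21 ± 0.17, adjusted p = 0.0128), and Elovl2 at 866 and 822 against 367 and 350.3 CPM (log2 difference -1.23 ± 0.18, adjusted p = 0.0136). Fads2, the delta-6 desaturase, was at 281 and 242 against 125 and 123 CPM (log2 difference -1.08 ± 0.17, adjusted p = 0.0146), whereas Fads1 at 306 and 343 against 221 and 280.3 CPM and Fads6 at 44.5 and 36.6 against 26.1 and 12.5 CPM did not pass (adjusted p = 0.196 and 0.0708). Elovl3, at 177 and 64.1 against 21.5 and 10.1 CPM, fell too, is also a male-biased gene and just missed without KO-Refed2 (adjusted p = 0.0508).

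Triglyceride assembly and export fell in part. Gyk, glycerol kinase, was at 228 and 203 CPM in WT-Refed and 112 and 76.7 CPM in the labelled knockouts (log2 difference -1.19 ± 0.21, adjusted p = 0.0190), and Agpat2, an acyltransferase of the same path, at 152 and 164 against 102 and 92.00 CPM (log2 difference -0.71 ± 0.17, adjusted p = 0.0404). Agpat6 was at 162 and 137 against 103 and 115 CPM and did not pass (adjusted p = 0.112). Mttp, which loads lipid onto apolipoprotein B, fell at 522 and 453 against 293 and 226 CPM (adjusted p = 0.0297). Apob, which encodes that apolipoprotein on a very long transcript, was at 8412 and 7784 against 3915 and 2942 CPM (adjusted p = 0.0164), and its call was lost with the length correction (adjusted p = 0.124). Of 24 sterol synthesis and uptake genes 2 fell (5 and 3 without KO-Refed1, 0 and 3 without KO-Refed2, 0 and 2 with the length correction), and the sums of the list were 3449 and 6263 CPM in WT-Refed and 3508 and 5817 CPM in the labelled knockouts, so that replicate 2 was the higher in both genotypes. Over all tested genes 4.84% were called lower. Stard4, a sterol carrier, was at 70.7 and 101 against 33.4 and 14.01 CPM (adjusted p = 0.0337).

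Of 27 genes of fatty acid oxidation, thioesterases and ketogenesis 4 rose and 2 fell (10 and 2 without KO-Refed1, 5 and 7 without KO-Refed2, 5 and 3 with the length correction). Ppara, the nuclear receptor that drives oxidation genes, was at 219 and 227 CPM in WT-Refed and 74.6 and 63.7 CPM in the labelled knockouts (log2 difference -1.69 ± 0.18, adjusted p = 0.00817), and Cpt1a, which admits fatty acids to mitochondria, was at 533 and 474 against 296 and 250.3 CPM (log2 difference -0.88 ± 0.17, adjusted p = 0.0249). The 4 that rose were Lpl, Acot2, Acot9 and Fabp7, none of them a step of oxidation itself. Lpl, the lipase that takes fatty acids from lipoproteins and is normally low in adult liver, was at 17.95 and 25.1 against 143 and 129 CPM (log2 difference 2.66 ± 0.26, adjusted p = 0.00691). Macrophages make Lpl too, and with their markers raised as above their part in it was not tested. Acot2, a mitochondrial thioesterase, was at 24.8 and 16.1 against 62.95 and 45.97 CPM (log2 difference 1.41 ± 0.29, adjusted p = 0.0283), and Acot9 at 3.43 and 2.94 against 6.64 and 8.09 CPM (adjusted p = 0.0289). Fabp7, a fatty acid binding protein of the brain, was at 2.42 and 2.97 against 5.86 and 12.3 CPM (adjusted p = 0.0404).

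Of 26 tested glycolysis and glycogen genes 4 fell and 1 rose (4 and 8 without KO-Refed1, 1 and 8 without KO-Refed2, 2 and 6 with the length correction). Pkm2, listed under the older symbol of the muscle pyruvate kinase, rose from 6.32 and 5.59 CPM in WT-Refed to 14.4 and 24.1 CPM in the labelled knockouts (adjusted p = 0.0170). Pygl, the liver glycogen phosphorylase, was at 305 and 326 against 213 and 181 CPM (adjusted p = 0.0402), and Gbe1, the branching enzyme, at 94.2 and 88.96 against 63.4 and 45.7 CPM (adjusted p = 0.0442). Ppp1r3b, which brings a phosphatase to glycogen, was at 296 and 344 against 147 and 142 CPM (adjusted p = 0.0419) and did not pass with the length correction (adjusted p = 0.0572). Of 13 gluconeogenic and insulin-repressed genes 2 fell (2 and 5 without KO-Refed1, 1 and 3 without KO-Refed2, 0 and 1 with the length correction). Pcx, pyruvate carboxylase, was at 973 and 957 against 471 and 624 CPM and lost its call with the length correction (adjusted p = 0.123). Pck1, the gluconeogenic carboxykinase, was at 578 and 640.3 against 306 and 374 CPM (log2 difference -0.84 ± 0.19, adjusted p = 0.0376). Eno1, a glycolytic gene with many processed copies in the genome, had at most 1 read in a refed library and was not tested.

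Of 23 bile acid genes 7 fell and 1 rose (2 and 13 without KO-Refed1, 2 and 12 without KO-Refed2, 2 and 14 with the length correction). Cyp8b1, the sterol 12-alpha-hydroxylase that sets the share of cholic acid, was at 1065 and 749 CPM in WT-Refed and 129 and 291 CPM in the labelled knockouts (log2 difference -2.11 ± 0.38, adjusted p = 0.0210), and Slc10a1, the importer NTCP, was at 671 and 942 against 249 and 389 CPM (log2 difference -1.34 ± 0.27, adjusted p = 0.0283). Scp2, a sterol carrier of peroxisomes, was at 3072 and 2958 against 771 and 1118 CPM (log2 difference -1.67 ± 0.21, adjusted p = 0.0105). Nr0b2, which encodes the repressor SHP, was at 36.2 and 30.98 against 17.98 and 14.7 CPM (adjusted p = 0.0285). Cyp7a1, the rate-limiting enzyme of bile acid synthesis, was at 461 and 468 against 303 and 252 CPM and did not pass (adjusted p = 0.0655). The gene that rose was Ostb, a basolateral exporter subunit, at 0.123 and 0.184 against 1.15 and 1.34 CPM.

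Male mouse liver makes a set of genes in response to pulses of growth hormone, and of 23 such male-biased genes 13 fell and none rose (0 and 15 without KO-Refed1, 0 and 16 without KO-Refed2, 0 and 20 with the length correction), with a median log2 difference of -2.93. All 13 were at least 2-fold below the WT mean in each labelled knockout. Hsd3b5, a male steroid dehydrogenase, was at 99.2 and 103 CPM in WT-Refed and 0.389 and 1.97 CPM in the labelled knockouts (log2 difference -6.45 ± 0.80, adjusted p = 0.00991). Slco1a1, an organic anion transporter, was at 397 and 386 against 35.3 and 64.6 CPM (log2 difference -2.97 ± 0.30, adjusted p = 0.00703), and Cyp4a12b at 175 and 128 against 8.62 and 9.34 CPM (log2 difference -4.08 ± 0.38, adjusted p = 0.00559). Mup7, of the major urinary proteins, was at 1175 and 160.0 against 0.796 and 1.12 CPM, with a wide gap between the WT samples (log2 difference -9.45 ± 1.72, adjusted p = 0.0217). The Mup, Cyp4a12, Cyp2a, Cyp2b and Serpina1 genes are near-identical copies, so reads may have been split or dropped among them and the values of single copies are uncertain. Of 25 tested female-biased genes 6 rose and 1 fell (11 and 2 without KO-Refed1, 7 and 1 without KO-Refed2, 7 and 1 with the length correction). Cyp2b13 was at 0 and 0.0263 against 6.87 and 12.5 CPM, with 1 read in all in WT-Refed, and Sult1e1, the oestrogen sulfotransferase, at 0.173 and 0.184 against 0.999 and 1.49 CPM (adjusted p = 0.0121). Of 15 genes of the growth hormone axis 3 fell (1 and 7 without KO-Refed1, 0 and 5 without KO-Refed2, 0 and 4 with the length correction). They were Ghr, the growth hormone receptor, at 526 and 597 against 302 and 277 CPM (log2 difference -0.96 ± 0.16, adjusted p = 0.0190), Onecut1, at 11.8 and 13.6 against 3.33 and 4.69 CPM, and Prlr, the prolactin receptor, at 134 and 226 against 79.9 and 74.97 CPM, which is also the female-biased gene that fell and was not called without KO-Refed2 (adjusted p = 0.0612).

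Of 19 tested clock genes 7 fell and none rose (0 and 13 without KO-Refed1, 2 and 9 without KO-Refed2, 1 and 5 with the length correction), each of the 7 at least 2-fold below the WT mean in each labelled knockout. Cry2, a repressor of the clock, was at 45.5 and 42.1 CPM in WT-Refed and 16.9 and 21.1 CPM in the labelled knockouts (log2 difference -1.21 ± 0.17, adjusted p = 0.0121). Nr1d1, which encodes REV-ERBalpha, was at 83.4 and 114 against 44.5 and 46.7 CPM (log2 difference -1.11 ± 0.19, adjusted p = 0.0182), and its relative Nr1d2 was at 62.5 and 75.1 against 31.7 and 26.4 CPM (log2 difference -1.24 ± 0.20, adjusted p = 0.0162). The output factors Tef, at 126 and 149 against 41.6 and 66.3 CPM, and Hlf, at 94.6 and 91.7 against 34.5 and 42.04 CPM, fell as well but lost the call with the length correction (adjusted p = 0.0532 and 0.0587). Per3, a period gene whose WT samples differed by nearly 2-fold, was at 15.9 and 31.1 against 5.30 and 8.51 CPM and lost it too (adjusted p = 0.105). Their fellow output factor Dbp, at 18.5 and 30.9 against 5.38 and 21.6 CPM, overlapped between groups (adjusted p = 0.340). Clock genes change through the day, and with the hour of sampling unknown, genotype and hour cannot be told apart for them.

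**Figure D5:**
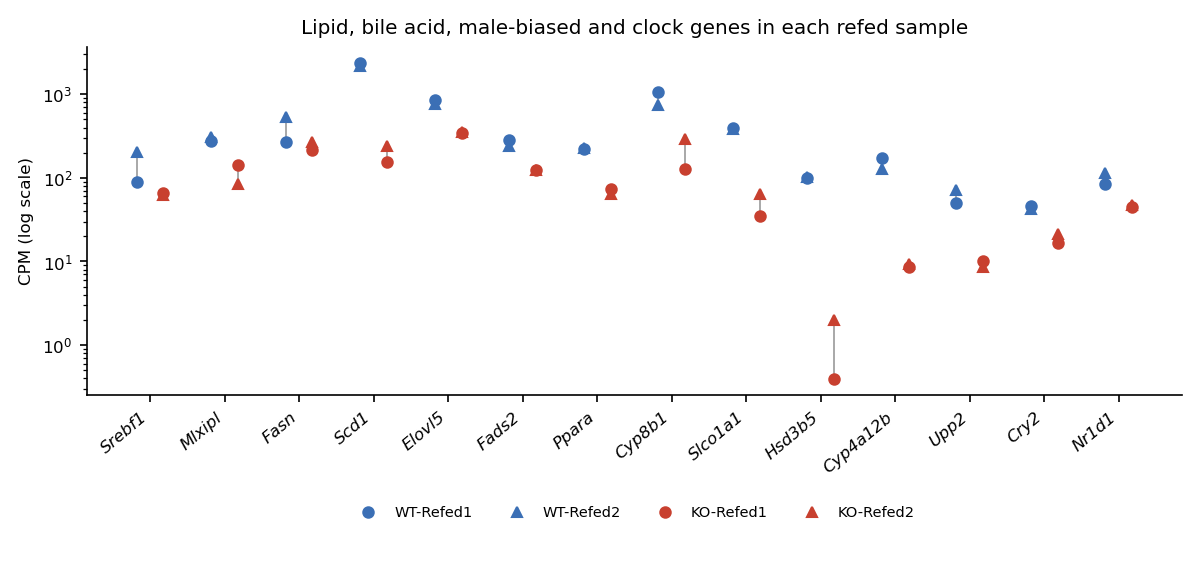
CPM on a log axis of lipid, bile acid, male-biased, pyrimidine and clock genes in the WT-Refed (blue) and labelled KO-Refed (red) libraries, with circles for replicate 1 and triangles for replicate 2. Red points lie below both blue points for every gene drawn except Fasn, where the red triangle meets the lower blue point, and the widest gaps are those of Hsd3b5 and Cyp4a12b.

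Of 13 pyrimidine genes Upp2, Tymp and Dpyd fell (3 and 3 without KO-Refed1, 0 and 6 without KO-Refed2, 0 and 4 with the length correction). Upp2, the liver uridine phosphorylase, was at 50.4 and 71.3 CPM in WT-Refed and 10.1 and 8.66 CPM in the labelled knockouts (log2 difference -2.70 ± 0.40, adjusted p = 0.0135), and Tymp, thymidine phosphorylase, was at 90.3 and 79.98 against 25.6 and 24.2 CPM (log2 difference -1.78 ± 0.17, adjusted p = 0.00559). Of 36 urea cycle and amino acid catabolism genes Otc, Slc25a13, Uroc1, Gldc and Aass fell and none rose (6 and 11 without KO-Refed1, 0 and 18 without KO-Refed2, 0 and 11 with the length correction), with Otc, of the urea cycle, at 521 and 481 against 226 and 305 CPM (adjusted p = 0.0280) and Gldc, of glycine breakdown, at 305 and 256 against 115 and 124 CPM (adjusted p = 0.0109). Of 32 hepatocyte identity factors and secreted proteins the plasma proteins F9, F11, Hc and C9 fell (5 and 10 without KO-Refed1, 0 and 18 without KO-Refed2, 0 and 11 with the length correction), and C9, of the complement pore, was at 445 and 390.5 against 77.9 and 129.9 CPM (log2 difference -2.01 ± 0.32, adjusted p = 0.0152). Of 24 acute phase, metallothionein and iron genes 2 rose and Saa4, Crp and Slc39a14 fell (5 and 6 without KO-Refed1, 2 and 8 without KO-Refed2, 1 and 4 with the length correction). Over all tested genes 7.09% were higher and 4.84% lower, so the 2 that rose were near that share. Mt2, a metallothionein, rose at 5.26 and 5.86 against 17.96 and 48.6 CPM (adjusted p = 0.0190). Hamp, which encodes the iron hormone hepcidin, rose at 524 and 441 against 1096 and 1026 CPM (adjusted p = 0.0129). Its call was lost with the length correction (adjusted p = 0.325). The acute phase gene Saa2 differed widely between the WT samples themselves, at 5.63 and 319 CPM, against 8.51 and 27.5 CPM (adjusted p = 0.167). Of 21 zonation genes Cyp2f2, Cdh1 (adjusted p = 0.0665 with the length correction) and Pck1 fell (3 and 7 without KO-Refed1, 0 and 7 without KO-Refed2, 0 and 5 with the length correction), and the periportal Cyp2f2 was at 1427 and 1065 against 287 and 480.0 CPM (adjusted p = 0.0220).

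Gene groups with short transcripts differed between the labelled knockouts. Of 78 tested cytosolic ribosomal protein genes, with a median transcript of 772.5 bases, 36 rose and none fell (68 and 0 without KO-Refed1, 48 and 0 without KO-Refed2, 44 and 0 with the length correction). Their median log2 difference was 0.58 with the length correction, and their median difference from the WT mean was 0.60 in the library labelled KO-Refed1 and 1.61 in that labelled KO-Refed2, and 3 of the 36 met the 2-fold rule in each library. Of 51 oxidative phosphorylation genes, with a median of 704 bases, none was called by edgeR (41 and 3 without KO-Refed1, 0 and 11 without KO-Refed2, 0 and 7 with the length correction), 4 had an unadjusted p under 0.05 and DESeq2 called 2 lower. Their medians were of opposite sign in the 2 libraries, -0.31 and 0.96. No direction is given for that group.

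The 10 genes with the highest and the 10 with the lowest log2 difference among genes with a mean of 5 CPM or more over the refed samples that met every rule, the length correction included (4.52% of tested genes higher and 1.75% lower), were also listed. Vmn2r3, annotated as a vomeronasal receptor, had no read in WT-Refed and 30.6 and 13.3 CPM in the labelled knockouts, at least 389.0-fold and 169.0-fold above the level of 3 reads in the shallower WT library. Rap1gap2, a GTPase activator for Rap1, was at 0.370 and 0.210 against 25.5 and 3.75 CPM, and Cyp2a22, a cytochrome P450, at 6.25 and 14.1 against 256 and 194 CPM. The other 7 highest, Mmp12, Nupr1, Psat1, Gpnmb, Atf3, Ly6d and Arhgef2, are given above. The lowest was Gm5077, a predicted gene, at 19.6 and 49.02 against 0.0339 and 0.0219 CPM, both of the latter under the level of 3 reads. Of the rest, Mup1, Mup7, Mup14, Mup21, Hsd3b5, Cyp4a12b, Serpina1e and the pseudogene Serpina4-ps1 belong to male-biased families. Without KO-Refed2, Gm5077 (adjusted p = 0.0529) and Mup1 (adjusted p = 0.0565) were not called. C730036E19Rik, an uncharacterized transcript, was at 61.1 and 89.1 against 1.85 and 5.30 CPM (log2 difference -4.40 ± 0.60, adjusted p = 0.0114).

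Whether the effect of the deletion differed between refed and fasted livers was tested as an interaction of genotype and feeding. No gene of 14328 passed in edgeR's quasi-likelihood test (0% called), while 1209 (8.44%) had an unadjusted p under 0.05 and DESeq2 called 105. The median log2 difference of the 1016 higher genes was 1.57 in refed and 0.89 in fasted livers, and that of the 693 lower genes -1.05 and -0.47. The refed test chose these genes, so the 2 medians are a description and not a comparison of the feeding states. For Ddit3 the differences were 4.17 in refed and 1.30 in fasted livers (adjusted p in the fasted comparison = 0.0395), with CPM of 6.66 and 5.62 in WT-Fasted and 15.5 and 14.8 in KO-Fasted. For Trib3 they were 4.47 and 1.10 (fasted adjusted p = 0.259). For Upp2 they were -2.70 and 0.15 (fasted adjusted p = 0.882), and for Scd1 -3.52 and -2.95 (fasted adjusted p = 0.0478). For Hsd3b5 they were -6.45 and -5.18 (fasted adjusted p = 0.0385). The adjusted interaction p was 0.116 for Ddit3, 0.544 for Trib3 and 0.544 for Upp2, so none of these gaps between the feeding states was shown by edgeR.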

How the data were processed

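Total RNA of whole liver was sequenced on an Illumina NextSeq 500, 1 library a sample, and the authors deposited 1 table of raw read counts per gene symbol for each of the 8 samples. The study's methods name ERANGE for counting and the submitters' processing notes name cutadapt, STAR, HTSeq, DESeq2 and the build mm10 without versions. The annotation, the strand setting and the treatment of shared reads are not given in the sources used here.

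Counts of 23337 symbols were joined, and 14328 passed edgeR's filterByExpr (edgeR 4.0.16, R 4.3.3, minimum count 10 and minimum total 15). Libraries of 40210576 to 49117080 counts were scaled by TMM, and CPM uses the scaled library size. The floors of 3 counts cover counting error only. A quasi-likelihood fit with 1 coefficient a group over all 8 samples, with no covariate, gave the refed, fasted and interaction contrasts, with Benjamini-Hochberg adjustment over all tested genes and a threshold of 0.05. The standard error is the log2 difference divided by the root of its F statistic, so it includes the estimated spread between replicates. The length correction adds to each library an offset fitted by lowess (span 0.3) of its log2 CPM, less the gene's mean, against the gene's median transcript length in a GENCODE annotation of GRCm38, which matched 20953 symbols directly and 1904 by synonym. DESeq2 1.42.0 and limma 3.58.1 were alternatives. The steps were also run on simulated counts that gave a gene the same spread in every group. A wider replicate spread in 1 group, as in KO-Refed, was not simulated.

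Genes were named by rule: the 5 marker genes and Syvn1, the 10 highest and 10 lowest log2 differences among genes at 5 CPM or more that met every criterion, the members of each list with the smallest p or for which the list is known, and genes the study discusses. Vldlr, Saa2 and Eno1 were named after their values were seen. The markers and lists were chosen with earlier results of these data known. Some members counted in the lists are not reported here by name.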

Additional observations from a re-analysis of the deposited data

How the results depend on the processing

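Against 1016 higher and 693 lower genes, DESeq2 called 1704 and 1486, scaling by total counts only 1975 and 283, limma-voom with sample quality weights 121 and 31, and the 4 refed samples alone 0 and 0. The length correction gave 1341 lower genes and, with the replicate block, 1377. Leaving out a refed library gave 1 to 3667 higher and 0 to 4023 lower genes, the lowest without WT-Refed1 (1 and 0) or WT-Refed2 (2 and 0) and the highest without KO-Refed1 (3667 and 4023), with 1773 and 1701 without KO-Refed2. Leaving out a fasted library gave 241 to 495 higher and 167 to 290 lower genes. The genotype by feeding interaction, with no gene called by edgeR, gave 105 in DESeq2, 2 with no filter on low counts, and 0 to 4890 when a library was left out, with 4890 without KO-Refed1 and 106 without KO-Refed2. Other settings kept both refed counts within 1.5-fold. The 130 called genes named in the text kept their direction in every setting where they were tested, and 130, 129 and 128 of them were no longer called with the 4 refed samples alone, without WT-Refed1 and without WT-Refed2. With limma-voom and its sample quality weights, 94 of these 130 were no longer called. Of genes that were not called, Saa2 ranged from -4.25 without KO-Refed2 to 1.67 without WT-Refed2, and Xist to 0.11 with the length correction, 0.17 with the block and length correction, and from -1.16 without WT-Refed1 to 0.60 without WT-Refed2. The replicate block called 794 higher and 602 lower genes. Deviations of same-numbered samples correlated across genes at 0.0161 to 0.179 between pairs of groups, so the numbers were not taken to pair the samples. A fit without 1 refed library has 1 sample in that group, so its counts leave out the spread within it. No cause of these changes was tested. A gene under the level of 3 reads, 0.0508 to 0.0788 CPM in the refed libraries, could not be told from absent.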
